A study of Mus musculus with 4 samples.

Results

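The 10 genes of the cardiac Z-disc and of the cardiac response to stretch examined here are Myot, Actn2, Ldb3, Nexn, Myoz2, Tcap, Csrp3, Ankrd1, Ankrd2 and Xirp2. They were measured by every probe set whose only gene symbol in the array annotation is one of these names. This gave 12 probe sets of 45037 and 9 genes of 18193 measured genes. Xirp2 had no such probe set and has no value here. The group was chosen by function, with earlier results of these data already known. Among them was Myot's difference between knock-in and wild-type hearts on these same arrays. The differences between the genotypes are therefore given as a description, and the members' counts in the fit over all probe sets support nothing about them.

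Mouse hearts of 2 groups were compared, each group with 2 arrays. The knock-in group carries the GSK-3alpha S21A allele, in which serine 21 of the kinase is replaced by alanine, and the wild-type group does not. Both groups are of strain C57B6, aged 3.6 months, and were taken at baseline with no treatment. The labels give neither the dose of the allele nor whether an array holds 1 animal, so n counts arrays. SDs below measure the spread between arrays, which may be technical. Standard errors and intervals come from a limma fit that draws each probe set's variance toward that of all probe sets. They can therefore exceed a probe set's own spread between arrays. Values come from single-colour Affymetrix arrays and are RMA log2 values, so each step of 1 doubles the signal, and each difference is knock-in minus wild-type.

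The Z-disc is the plate at each end of the sarcomere, where thin filaments of neighbouring sarcomeres are crosslinked by alpha-actinin and the ends of titin are anchored. Many Z-disc proteins also take part in signalling, because the plate bears the load of each contraction. Ankyrin repeat proteins of the MARP family and the muscle LIM protein are textbook examples of stretch-responsive genes of heart and skeletal muscle. GSK-3alpha is a constitutively active kinase that Akt restrains by phosphorylating the serine which the knock-in removes.

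The sequences before the transcription starts of 2 members are shown because one encodes a load-induced protein and the other a structural one, and neither separated the genotypes clearly. They are from RefSeq, build GRCm38.p6, and are read 5′ to 3′ on the gene's own strand, up to the base before the annotated gene. Ankrd1 lies at chr19:36119845-36120094 on the minus strand, and Myoz2 at chr3:123035004-123035237 on the minus strand. Capitals mark matches to the motifs named after the sequences.
Ankrd1: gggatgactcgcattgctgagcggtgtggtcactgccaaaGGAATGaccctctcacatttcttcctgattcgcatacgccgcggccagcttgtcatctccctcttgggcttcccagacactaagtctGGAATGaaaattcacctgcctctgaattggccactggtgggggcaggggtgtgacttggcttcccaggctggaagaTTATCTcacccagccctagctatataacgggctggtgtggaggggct
Myoz2: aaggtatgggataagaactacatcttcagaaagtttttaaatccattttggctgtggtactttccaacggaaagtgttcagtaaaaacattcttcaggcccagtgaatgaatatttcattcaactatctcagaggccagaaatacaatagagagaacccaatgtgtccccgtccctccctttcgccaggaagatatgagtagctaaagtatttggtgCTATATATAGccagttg

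Both strands were searched for the M-CAT motif, which is written CATTCC, for the TATA motif, written TATAAA, for the GATA motif, written AGATAA, for the MEF2 motif, written CTANNNNTAG and the same on both strands, and for the CArG box. A TATA match can lie inside a MEF2 or a CArG match. The Ankrd1 window held 2 M-CAT matches, at 210 and 123 bases before the start, and a GATA match at 47 bases, all on the opposite strand. The Myoz2 window held a MEF2 match that begins 33 bases before the start used in the table. Over all 32851 windows of 250 bases, 12.6% held the M-CAT motif, 12.4% the TATA motif, 9.99% the GATA motif, 3.2% the MEF2 motif and 1.47% the CArG box. The table held windows for 7 of the 10 genes, and none for Myot, Tcap and Nexn. Among the windows not shown, those of Actn2 and Csrp3 held none of the motifs. Those of Ankrd2, Ldb3 and Xirp2 held at least 1. The matches are letters in these windows only.

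Myot was higher in the knock-in hearts, by about 1 step on the log2 scale, while the other 8 measured members differed by between −0.23 and 0.08 by their brightest probe sets. Myot encodes myotilin, a Z-disc protein that binds alpha-actinin and filamin C and is mutated in a human myofibrillar myopathy. Its probe set read 11.35 and 11.24 in knock-in hearts, against 10.24 and 10.48 in wild-type hearts. Both knock-in arrays lay above both wild-type arrays, while 46.5% of all genes had groups that did not overlap in either direction. The distance between the Myot groups exceeded the distance between replicates of either group, which was 0.11 in knock-in and 0.24 in wild-type hearts. The means were 11.30 ± 0.08 in knock-in and 10.36 ± 0.17 in wild-type hearts (SD, n = 2 each), a log2 difference of 0.93 with a standard error of 0.13, or 1.91-fold by RMA values. Among all 18193 genes, 61 had a difference at least as high as that of Myot (0.335%). Myot was included with this difference known, so its rank restates that choice and is not a test. Only 1 probe set measures Myot, so no second probe set bears on this value.

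**Figure D1:**
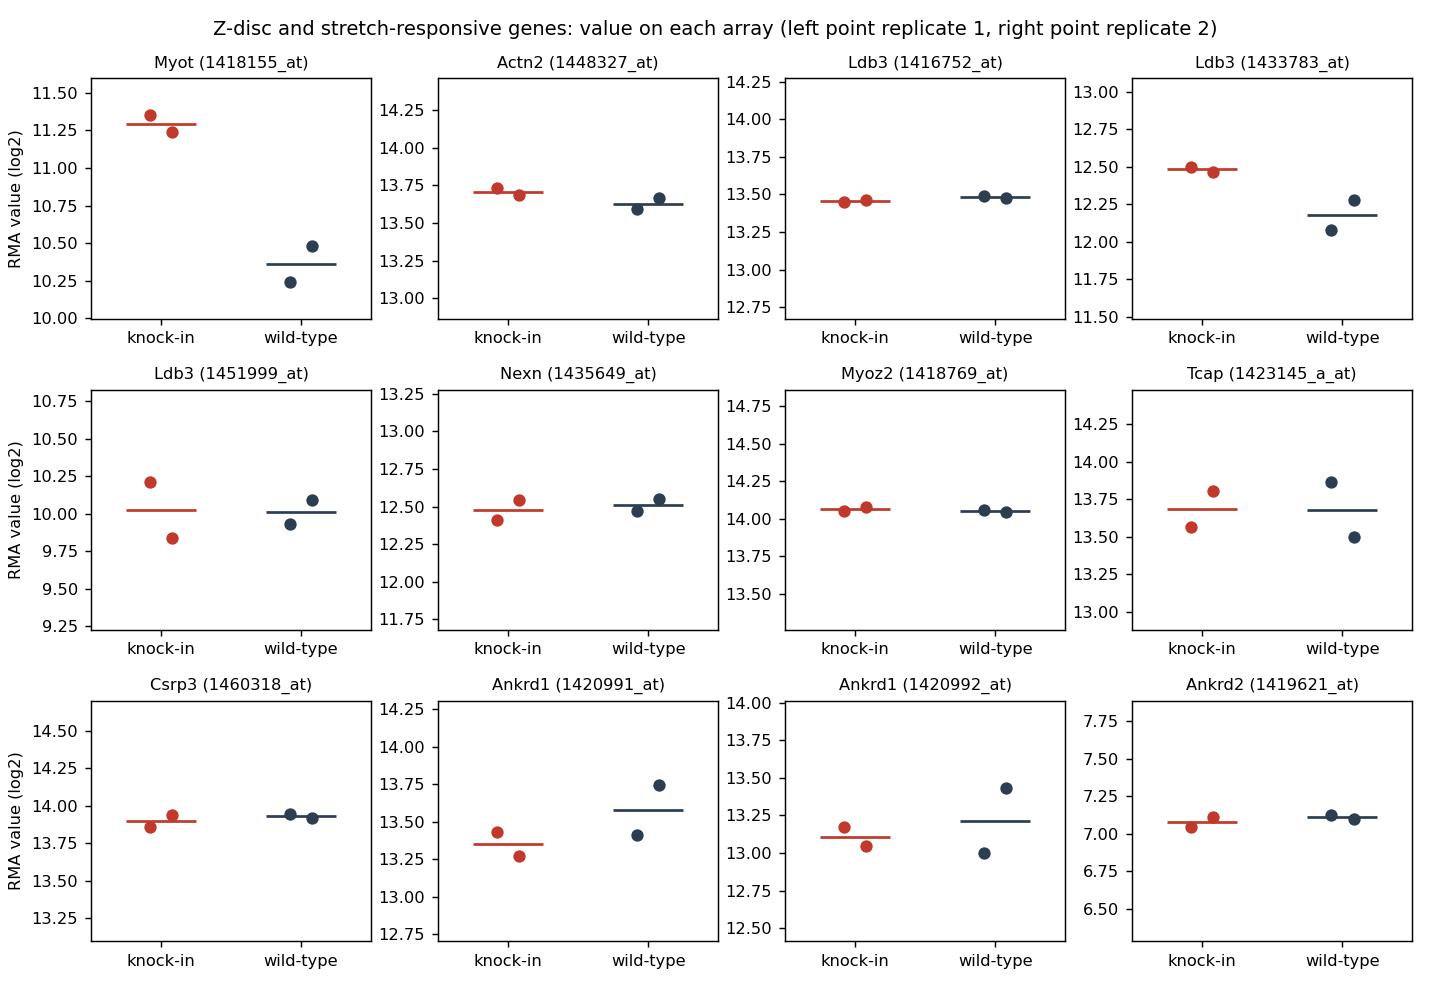
RMA values (log2, vertical axis) of the 12 probe sets on each array, with knock-in arrays in red and wild-type arrays in dark blue, left point replicate 1, right point replicate 2, and lines at the group means. Every panel spans the same number of log2 units; the 2 Myot points of the knock-in hearts (11.35 and 11.24) lie above those of the wild-type hearts (10.24 and 10.48), whereas most other panels show groups that overlap or nearly touch.

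Actn2, Ldb3 and Nexn form or bind the actin lattice of the Z-disc. Actn2, which encodes the sarcomeric alpha-actinin that crosslinks thin filaments, read 13.73 and 13.69 in knock-in hearts, against 13.59 and 13.66 in wild-type hearts. The groups did not overlap, but the gap between them was narrower than the step between the wild-type arrays. The difference was 0.08, with a standard error of 0.11 from the fit and SDs of 0.03 in knock-in and 0.05 in wild-type hearts. Nexn, which encodes the actin-binding protein nexilin, read 12.41 and 12.55 in knock-in hearts, against 12.47 and 12.55 in wild-type hearts, and the groups overlapped at a difference of −0.03 (standard error 0.11).

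Ldb3 encodes Cypher, also called ZASP, a PDZ and LIM domain protein that binds alpha-actinin, and its 3 probe sets did not move alike. The brightest one read 13.45 and 13.47 in knock-in hearts, against 13.49 and 13.48 in wild-type hearts, a difference of −0.03 with a standard error of 0.10. The second one read 12.50 and 12.47 in knock-in hearts, against 12.08 and 12.28 in wild-type hearts, a difference of 0.31 with a standard error of 0.12. The groups did not overlap on either of these probe sets, in opposite directions, but the sign of the brightest one turned when arrays were shifted to 1 median. The third read 10.21 and 9.84 in knock-in hearts, against 9.93 and 10.09 in wild-type hearts, with overlapping groups and a difference of 0.01. Which Ldb3 transcripts each probe set detects was not tested.

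Myoz2, Tcap and Csrp3 encode small Z-disc proteins with signalling roles. Myoz2, the gene of calsarcin-1, which tethers the phosphatase calcineurin to alpha-actinin, read 14.05 and 14.08 in knock-in hearts, against 14.06 and 14.04 in wild-type hearts. Tcap, the gene of telethonin, which caps the Z-disc end of titin, read 13.56 and 13.81 in knock-in hearts, against 13.86 and 13.50 in wild-type hearts. Csrp3, the gene of muscle LIM protein, read 13.86 and 13.94 in knock-in hearts, against 13.94 and 13.92 in wild-type hearts. For all 3 genes the groups overlapped, and the log2 differences were 0.01, 0.00 and −0.03 with standard errors of 0.10, 0.16 and 0.11. Tcap had the widest spread between replicates of the 3, with steps of 0.24 between the knock-in and 0.37 between the wild-type arrays.

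Of the 3 stretch-induced members 2 were measured, and neither stood higher in the knock-in hearts. Ankrd1 encodes CARP, a titin-binding ankyrin repeat protein that rises under cardiac load, and it read 13.43 and 13.27 in knock-in hearts, against 13.41 and 13.74 in wild-type hearts by its brighter probe set. Its second probe set read 13.17 and 13.04 in knock-in hearts, against 13.00 and 13.43 in wild-type hearts. On both probe sets the wild-type arrays differed more from each other than the group means did, and the log2 differences were −0.23 (standard error 0.14) and −0.11 (standard error 0.16), the second of which turned sign without wild-type replicate 2. Ankrd2 encodes a related protein best known from slow skeletal muscle. Its values of 7.05 and 7.11 in knock-in hearts, against 7.13 and 7.10 in wild-type hearts, overlapped with a difference of −0.03 (standard error 0.10). Its mean of 7.10 was the lowest of the measured members.

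Read together, 0 of the 12 probe sets passed an adjusted threshold of 0.05 in the limma fit over the whole table, where 0.00666% of probe sets passed, and 2 of 12 passed without adjustment, against 10.7%. The groups did not overlap for 4 of the 12 probe sets, against 45.2% of all probe sets. By the brightest probe set, 3 of the 9 genes did not overlap, against 46.5% of all genes, with Myot and Actn2 higher and the sign of Ldb3 turning when arrays were shifted to 1 median, and 1 of 9 differed by at least 0.5 on the log2 scale, against 2.24%. The members' median difference was −0.03, beside −0.01 over all genes and 0.06 over genes with a mean value of at least 7. Because the group was chosen with Myot's difference known, these shares say nothing about the members as a set. Among the 8 other genes the 95% interval of the difference was widest for Tcap (−0.38 to 0.39) and narrowest for Ldb3 (−0.27 to 0.22). These intervals rest on the variance shared over all probe sets as well as on the 2 arrays a group. The brightest Ldb3 probe set itself spread less, with SDs of 0.01 in knock-in and 0.01 in wild-type hearts. The highest values of any probe set on the arrays lay between 14.97 and 15.09, and array signals compress near the top of the range. The part of compression in the small differences of the brightest members was not tested.

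**Figure D2:**
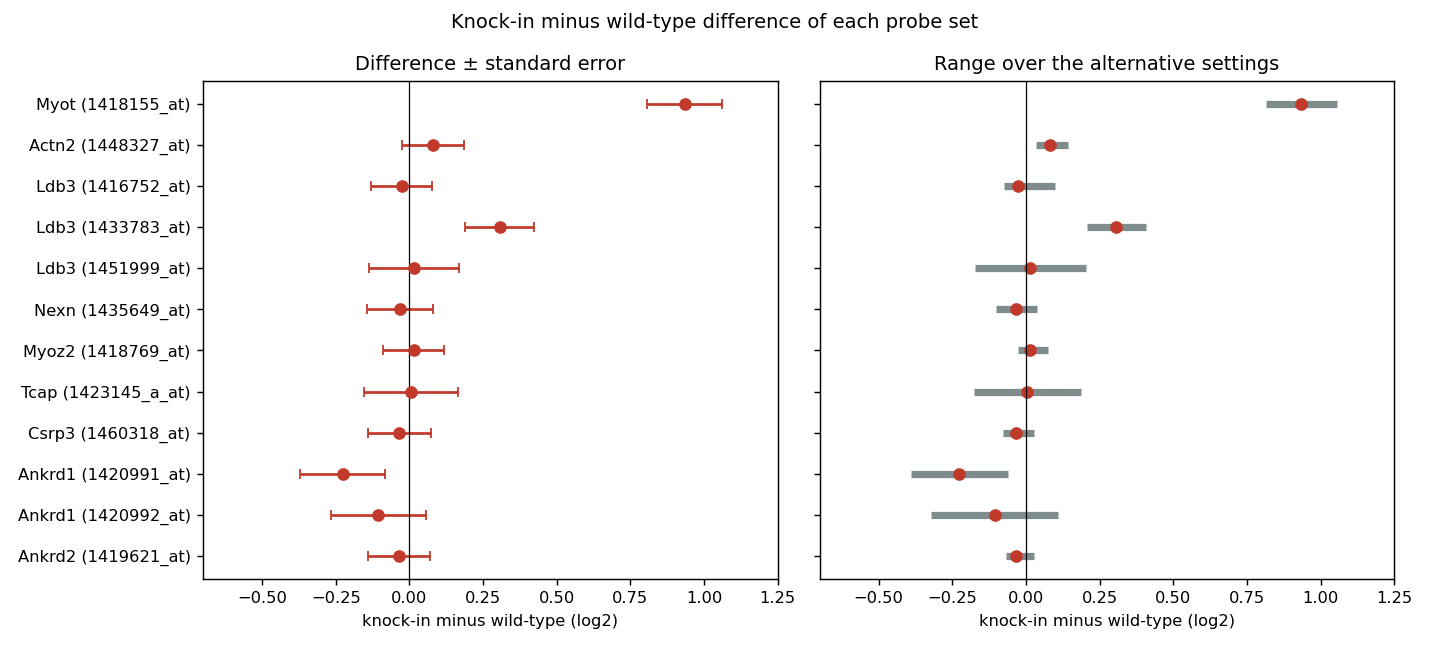
Left, knock-in minus wild-type difference (log2) of each probe set with its standard error from the limma fit over all probe sets; right, the same value (point) with its lowest and highest value over the alternative settings (bar). Myot lies at 0.93, between 0.81 and 1.05 under the alternatives, and the second Ldb3 probe set at 0.31, between 0.21 and 0.41.

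The summed linear signal of the 9 members was 88014 and 90239 in knock-in hearts, against 89564 and 89605 in wild-type hearts, so the groups overlapped. In bulk tissue, fewer cells of a type and less RNA per cell cannot be told apart.

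Among 9873 other genes with a mean value of at least 7, those whose 4 values most resembled Myot's, after each gene was centred on its own mean, were Hif1a, Cpxm2 and Igsf23. The root mean square distances were 0.01, 0.05 and 0.07 on the log2 scale, against 0.43 to 0.58 for the other members. Hif1a, the oxygen-regulated transcription factor gene, read 10.87 and 10.79 in knock-in hearts, against 9.75 and 10.02 in wild-type hearts. Its difference was 0.94, and its other probe sets lay at 0.89, 0.60 and −0.18. Cpxm2, of the carboxypeptidase family, differed by 0.997, and by 0.18 on its dimmer probe set, and Igsf23 by 0.83, with 0.98 and 1.53 on its others. With 4 arrays, likeness mostly reflects that these genes also separate the genotypes by about the same step.

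**Figure D3:**
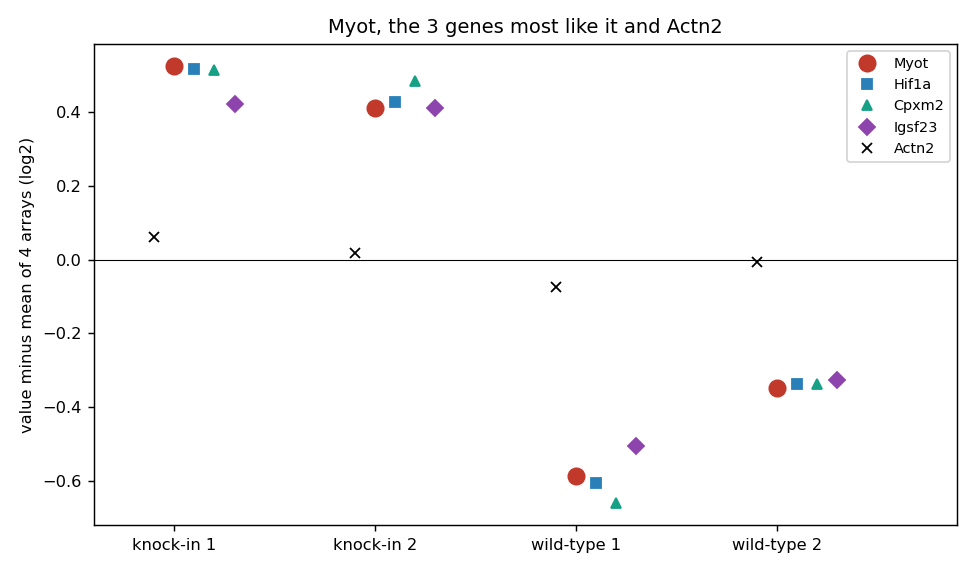
Value on each array minus the gene's own mean over the 4 arrays (log2, vertical axis) for Myot, the 3 genes nearest to it and Actn2, with knock-in arrays left of wild-type arrays. Hif1a, Cpxm2 and Igsf23 follow Myot at distances of 0.01 to 0.07, and Actn2 stays near 0 on all arrays.

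Other proteins of the Z-disc were listed by function, with earlier results of these data known. Shares of this list therefore support nothing about it. Of its 25 genes, 24 were measured. Of these, 12 were higher and 12 lower in the knock-in hearts, with a median difference of 0.01, and 0 passed the adjusted limma threshold in either direction. Without adjustment 0 passed higher and 1 lower, against 10.2% of all genes, and 0 differed by at least 0.5. Flnc, which encodes the actin crosslinker filamin C and a partner of myotilin, read 11.42 and 11.44 in knock-in hearts, against 11.72 and 11.87 in wild-type hearts. The Flnc groups did not overlap, with a difference of −0.37 (standard error 0.11) and −0.35 on its other probe set. Myoz1, the calsarcin gene of fast skeletal muscle, differed by −0.29, but by −0.11 without wild-type replicate 1, and Ablim1, an actin-binding LIM protein gene, by 0.22 by its brightest probe set and between −0.05 and 0.03 by the others. Pdlim3, the gene of an alpha-actinin-associated LIM protein, differed by 0.32, but this rested on wild-type replicate 1 (8.40, against 9.36 on wild-type replicate 2), and without it the difference was −0.16.

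All 20 load-responsive genes of a second list were measured, of which 13 were higher and 7 lower, with a median difference of 0.09. Among all genes with a mean of at least 7, 6417 of 9874 were higher, with a median difference of 0.06. Again 0 passed the adjusted limma threshold. Without adjustment 4 passed higher and 0 lower, against 10.2% of all genes in either direction. At least 0.5 was the difference of 3, against 2.24%. This list was also chosen with earlier results of these data known, so these shares support nothing about it. Myh7, the slow beta myosin heavy chain gene of the fetal and loaded mouse heart, read 11.51 and 11.87 in knock-in hearts, against 10.89 and 10.83 in wild-type hearts, a difference of 0.83 with a standard error of 0.15. Acta1, the skeletal alpha-actin gene that the loaded heart also expresses, read 12.97 and 12.91 in knock-in hearts, against 12.61 and 12.29 in wild-type hearts, a difference of 0.49 with a standard error of 0.14. In both genes the groups did not overlap. The other 2 of the 4, named after their values were seen, were Ankrd23 and Trim63. Ankrd23, which encodes a MARP protein like Ankrd1 and Ankrd2, read 12.24 and 12.39 in knock-in hearts, against 11.94 and 12.07 in wild-type hearts, a difference of 0.31 with a standard error of 0.12. Trim63, the gene of the muscle ubiquitin ligase MuRF1, differed by 0.31 with a standard error of 0.12, and for neither gene did the groups overlap. Fos differed by 0.74, but by 0.13 without knock-in replicate 2, and Lmcd1, a LIM and cysteine-rich domain gene, by −0.67, but by −0.25 without knock-in replicate 1. Ccn1, a matricellular protein gene also named after its values were seen, differed by −0.47 and by −0.44, −0.61 and −0.72 on its other probe sets, but by −0.17 without wild-type replicate 2. The natriuretic peptide genes Nppa and Nppb, classical signs of cardiac wall stretch, differed by −0.02 and 0.05. The Nppb value is imprecise, since its wild-type arrays read 13.08 and 13.67. Its difference was −0.25 without wild-type replicate 1 and 0.34 without wild-type replicate 2.

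**Figure D4:**
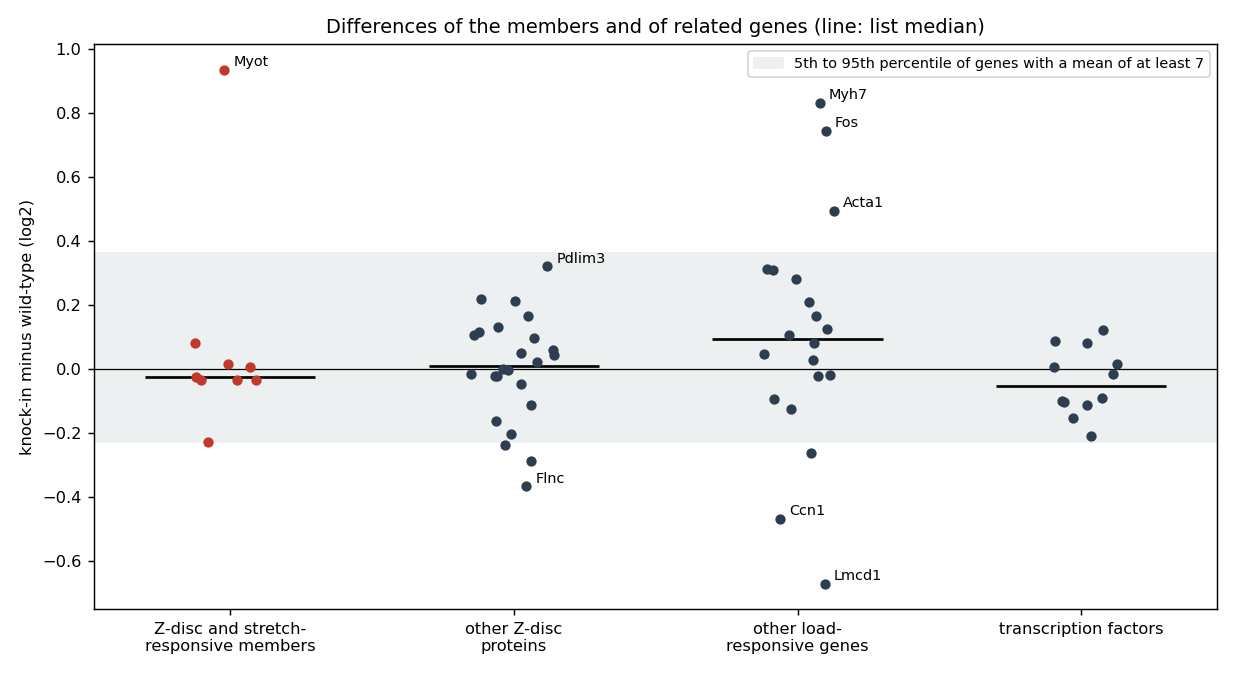
Knock-in minus wild-type difference (log2) of each gene by its brightest probe set, with lines at the list medians and a grey band from the 5th to the 95th percentile of genes with a mean of at least 7 (−0.23 to 0.36). Myot at 0.93, Myh7 at 0.83, Fos at 0.74 and Acta1 at 0.49 lie above the band, and Lmcd1 at −0.67, Ccn1 at −0.47, Flnc at −0.37, Myoz1 at −0.29, Hbegf at −0.26 and Actn3 at −0.24 below it. Actn3 has a mean of 4.92, dimmer than the genes of the band, and differed by −0.05 without wild-type replicate 1. Hbegf differed by 0.01 without wild-type replicate 2.

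Transcription factors of striated muscle genes, 12 in number and all measured, had a median difference of −0.05, with 5 higher and 7 lower, and 0 passed with or without adjustment of the limma p. The largest differences among those with a mean of at least 7 were −0.21 for Myocd, the coactivator of serum response factor, −0.15 for Mef2d, 0.12 for Tead1, which binds the M-CAT motif, and −0.10 for Gata4. Other probe sets of these genes lay at 0.01 for Myocd, 0.06 and −0.10 for Mef2d, −0.14 for Tead1 and −0.22 for Gata4.

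Markers of other tissues were read beside these values, since myotilin is also a skeletal muscle protein. Of 20 skeletal muscle markers, 7 were higher and 13 lower in knock-in hearts, with a median difference of −0.09. However, 15 had a mean below 7, and 8 lay below the array median on every array. The brighter ones differed by 0.46 (Myl1), 0.34 (Mybpc2), 0.19 (Tnnt1), 0.05 (Casq1) and −0.29 (Myoz1). Their groups did not overlap for Myl1 and Mybpc2 and overlapped for Tnnt1, Casq1 and Myoz1. Over all 20 markers the groups did not overlap for 8, against 46.5% of all genes. Of these 8, 2 were higher and 6 lower in knock-in hearts. The fast fibre genes Myh4 (4.68 and 4.43 in knock-in hearts, against 4.78 and 4.70 in wild-type hearts) and Myh1 (4.30 and 4.11 in knock-in hearts, against 4.11 and 4.22 in wild-type hearts) were among the dim ones. The summed linear signal of the 20 was 3906 and 3892 in knock-in hearts, against 3549 and 3352 in wild-type hearts. Its largest term was Myl1, a myosin light chain gene, at 10.68 and 10.56 in knock-in hearts, against 10.12 and 10.20 in wild-type hearts. The sum was not taken without Myl1, so it does not speak for the other markers. The 6 atrial markers had a median difference of 0.17, with 4 higher and 2 lower. Myl4 differed by 0.42 (−0.09 on its other probe set), Dkk3 by 0.37 (0.36 on its other) and the dim Bmp10 by −0.24. For these 3 of the 6 the groups did not overlap, against 46.5% of all genes, while Sln, Myl7 and Nppa overlapped between the groups. The part of atrial tissue in the members' values was not tested. All 10 cardiomyocyte markers were bright, and 8 of them were higher in knock-in hearts. Their median difference was 0.06, beside 0.06 over all genes with a mean of at least 7.

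Transcripts typical of liver read higher in knock-in hearts, but the knock-in arrays also differed widely from each other. All 18 measured of 20 liver markers were higher in knock-in hearts, with a median difference of 1.72. Their summed linear signal was 8100 and 3303 in knock-in hearts, against 1575 and 1068 in wild-type hearts. Of the 18, 12 had a mean below 7, and 0 passed the adjusted limma threshold. The groups did not overlap for 16, against 46.5% of all genes, and overlapped for Tat and Tdo2. The part of liver RNA in the Myot difference was not tested. Median differences of fibroblast and endothelial markers were 0.17 and 0.19, that of smooth muscle markers was 0.07, and their part in the result was not tested either.

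Array medians lay between 6.14 and 6.23, and the Gapdh control's 3′ signal exceeded its 5′ signal on every array, a measure of RNA quality, by a log2 value that was 0.54 and 0.76 in knock-in hearts, against 0.62 and 0.61 in wild-type hearts. Gsk3a, the gene that carries the substitution, read 10.62 and 10.80 in knock-in hearts, against 11.16 and 11.08 in wild-type hearts. It was lower in the knock-in hearts, by −0.42 with a standard error of 0.12. A substituted codon need not change a transcript's level, and the cause of the lower reading was not tested.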

How the data were processed

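The deposited table holds log2 values, 1 for each probe set on each array. The authors made them with RMA, in Affymetrix Expression Console according to the submitters' processing notes. Per the labels' descriptions, only the knock-in arrays were normalised together with the wild-type ones in this table. Program version, filters and scan dates were not stated in the sources used here. RMA brings the probe signals of all arrays to 1 distribution before it summarises them, so a change shared by most genes is largely removed. The summarised values kept medians between 6.14 and 6.23.

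After 64 control probe sets were left out, limma 3.58.1 (R 4.3.3) was fitted to 45037 probe sets by lmFit and eBayes with genotype alone, which left 2 residual and 4.54 prior degrees of freedom, and p-values were adjusted by Benjamini-Hochberg over all of them. A gene takes the values of its brightest probe set by mean, among 34945 with 1 symbol; 932 had several and 9160 none listed. The annotation is that of the array platform, and older list symbols were updated through RefSeq synonyms. Named genes are all members, genes past the threshold or the 4 largest differences at a mean of at least 7 in each related list, and the 3 nearest to Myot; Nppa, Nppb, Ankrd23, Trim63, Ccn1 and single markers were added after their values were seen. Simulated data served to test the fit. Members and lists were chosen with earlier results of these data known. Replicate numbers come from sample titles, which do not say that they pair arrays; the correlation of same-numbered deviations was 0.0848. The number of arrays limits precision, with a median standard error of 0.12. Tables used pandas 2.3.3 and numpy 2.4.6 under Python 3.11.15, and plots matplotlib 3.10.9. Alternatives covered the prior variance, filters on dim probe sets and on those with the name suffix _s, _x or _a, and normalisation. They also covered each array left out, the replicate block and probe set averaging.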

Additional observations from a re-analysis of the deposited data

How the results depend on the processing

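Under 13 alternatives the Myot difference stayed between 0.81 and 1.05, lowest without wild-type replicate 1 and highest without wild-type replicate 2. Actn2 (0.03 to 0.14) and the brighter Ankrd1 probe set (−0.39 to −0.06) also kept their sign, as did the second Ldb3 probe set (0.21 to 0.41 under 12). The other 8 probe sets turned sign under 1 to 4 alternatives, so their direction is not settled. The Tcap probe set has no value under the alternative that drops probe sets with the name suffix _s, _x or _a. With arrays shifted to 1 median the members' median difference was 0.034, and it lay between −0.068 and 0.027 with 1 array left out. Of the whole table, 3 probe sets passed in limma, 11 with arrays shifted to 1 median, 1 among those with a mean of at least 7, and 0 to 2 with 1 array left out; the shifted setting moves the median over all probe sets by less than 0.1. With the replicate number as a block 4 passed, and the Myot difference was 0.93. No gene of the other Z-disc, load-responsive and transcription factor lists passed adjustment in limma under any of these alternatives, and the marker lists were not recounted. The cause of these changes was not tested. With 2 arrays a group, the standard errors of 0.10 to 0.16 limit what the bright members can show.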
